A study of Mus musculus with 18 samples.

Results

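The matrix metalloproteinases (Mmp), the ADAMTS proteases, the ADAMTS-like proteins (Adamtsl) and the tissue inhibitors of metalloproteinases (Timp) were read in RNA of sorted mouse mammary cells. Genes were chosen by symbol, as Mmp, Adamts or Adamtsl followed by a number or Timp1 to Timp4, and kept where at least 3 of 18 libraries held 10 or more counts. Of 51 genes with such a symbol 40 were kept, among the 52636 genes of each count table, with 15 of 23 Mmp, 19 of 19 Adamts, 5 of 5 Adamtsl and 1 of 4 Timp genes. The 18 libraries formed 6 groups of 3 biological replicates. Mice carried the D542G or the Y541S mutation of Esr1, which encodes estrogen receptor alpha (ERα), or were wild type (WT). From each genotype cells were sorted through a gate called N and through the mature luminal gate (ML). All mice were raised to 6 months, carried pellets of estradiol and progesterone (E2 and P4) and then received the ERα antagonist giredestrant by mouth, 30 mg/kg daily for 4 days. No group lacked the hormones or the antagonist, so their effects could not be compared, and the labels name mature luminal cells as the source of the N libraries too. The labels do not say whether the mutation is carried on 1 or both alleles, nor whether animals were pooled. The study asks whether cells that arise under ERα antagonism occur in WT tissue.

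Libraries held 34797778 to 49507144 counts. Of 8 basal and myoepithelial markers 8 were higher in N, and their summed level was 5008 to 35832 CPM (counts scaled to a common library size with TMM factors) in N and 141 to 6309 CPM in ML libraries. Of 8 pan-luminal markers 8 were lower in N, at 1212 to 16434 CPM summed over N and 14708 to 29335 CPM over ML libraries. ML libraries thus carried pan-luminal markers, while basal markers were high in most N libraries. Summed over ML libraries, mature luminal markers stood at 1338 to 5897 CPM and luminal progenitor markers at 1950 to 6518 CPM. Y541S ML 2 held the lowest mature luminal sum and the highest luminal progenitor sum of the ML libraries. WT N 3 stood apart from the other N libraries, at 16434 CPM of pan-luminal and 5008 CPM of basal markers, and Y541S N 3 from the other Y541S N libraries, at 18454 CPM of epidermal and squamous markers against 1398 and 1766 CPM. Among the ML libraries 3 stood apart by hair follicle keratins, at 2869 CPM in Y541S ML 3, 5099 CPM in WT ML 1 and 1104 CPM in WT ML 2, against 0 to 109.9 CPM in the other 6. The same 3 held 1691, 6309 and 4710.1 CPM of basal markers, against 141 to 407 CPM in the other 6, so that WT ML 1 exceeded WT N 3. The part of these markers in the results below was not tested. These are bulk samples, in which fewer cells of a type and less RNA per cell cannot be told apart.

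Matrix metalloproteinases are zinc proteases that cut collagens, laminins and other proteins of the extracellular matrix, and most are secreted or membrane-bound proenzymes that must be activated. The TIMPs bind their active sites, and TIMP2 also takes part with the membrane-type enzyme MMP14 in activating MMP2. ADAMTS proteases are secreted relatives that cut proteoglycans, process procollagens or act on single plasma proteins, while ADAMTS-like proteins share their ancillary domains but have no protease domain. In the mammary gland these enzymes are known for their part in duct branching and in involution, with much of the Mmp2 and Mmp3 of the gland made outside the luminal layer.

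What the count tables can show of the family is uneven. Timp1, Timp3 and Timp4 had no count in any library. Each lies wholly inside the span of another gene, Timp1 in Syn1, Timp3 in Syn3 and Timp4 in Syn2. The same holds for Mmp19, which lies inside Gm47093, and of 900 protein-coding genes inside another protein-coding gene 783 (87.0%) were at 0 throughout, as were 3402 of 20996 other genes (16.2%). These zeros therefore say nothing about expression, and of the inhibitors Timp2 alone could be read. Mmp1a also had no count, while Mmp1b, Mmp7, Mmp8, Mmp10, Mmp20 and Mmp27 had at most 70 counts in a library and fell below the rule. Just inside it, Mmp13 and Mmp24 reached 10 counts in 3 libraries, and just outside it Mmp10 did so in 2. The N libraries alone met the rule for 5 members (Adamts19, Adamtsl2, Adamtsl3, Mmp9 and Mmp24) and the ML libraries alone for 4 (Adamts13, Adamts16, Mmp16 and Mmp25), so the direction of these 9 gives no support, and Mmp13 met it in neither gate alone. Another gene covers 65.7% of the exon bases of Adamts8, 25.4% of those of Adamts16, 24.8% of Adamts9, 20.1% of Adamts4, 13.6% of Mmp24 and 12.03% of Mmp28, so their counts are less certain. In 29 of the 40 members under 1% of the exon bases lie under another gene.

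Promoters are shown for Adamts1, higher in all N libraries, for Mmp15, lower in all of them, and for Mmp3, of the protease cluster on chromosome 9. They are the 250 bases before the transcription start that RefSeq gives, 5′ to 3′ on the strand of the gene, on GRCm38.p6. The table held promoters of 26 of the 40 members.
Adamts1 promoter, chr16:85803114-85803363, - strand: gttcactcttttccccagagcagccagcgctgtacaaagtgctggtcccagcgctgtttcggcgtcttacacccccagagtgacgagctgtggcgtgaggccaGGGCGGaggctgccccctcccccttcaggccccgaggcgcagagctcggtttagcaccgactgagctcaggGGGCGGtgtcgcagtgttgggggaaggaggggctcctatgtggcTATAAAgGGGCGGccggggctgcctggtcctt
Mmp15 promoter, chr8:95352046-95352295, + strand: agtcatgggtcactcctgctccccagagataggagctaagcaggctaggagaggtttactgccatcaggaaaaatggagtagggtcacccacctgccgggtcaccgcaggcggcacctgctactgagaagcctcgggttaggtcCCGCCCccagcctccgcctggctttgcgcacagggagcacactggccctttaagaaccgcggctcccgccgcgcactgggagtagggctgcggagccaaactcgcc
Mmp3 promoter, chr9:7445572-7445821, + strand: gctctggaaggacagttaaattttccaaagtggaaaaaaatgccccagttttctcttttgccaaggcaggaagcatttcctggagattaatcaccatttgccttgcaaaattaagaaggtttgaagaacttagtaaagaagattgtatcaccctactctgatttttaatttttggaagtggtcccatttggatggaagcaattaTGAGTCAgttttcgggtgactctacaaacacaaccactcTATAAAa
Capitals mark the letters of 4 motifs searched on both strands. TGANTCA, the AP-1 element, was found for Mmp3, Mmp12 and Mmp13, all on chromosome 9, and in 6.75% of 32851 promoters of this length. In Mmp3 it begins 46 bases before the start. The letters TATAAA, those of the TATA box, were found for Adamts1, Adamtsl2, Mmp3, Mmp13 and Mmp21 and in 12.4% of all promoters, and begin 32 bases before the start of Adamts1 and 7 before that of Mmp3. GGGCGG, the GC box, was found for 18 of the 26 members and in 32.7% of all promoters, with 3 copies in Adamts1 and 1 in Mmp15. The full estrogen response element was found for no member and in 0.0639% of all promoters. A match describes the letters only.

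To ask how matrix proteases differ between the gates, 9 N libraries were set against 9 ML libraries, each genotype weighing the same. Of 39 members tested 16 rose in N, 6 fell and 17 did not pass the test, a share of 56.4% called where 27.4% of all 18298 genes were called (13.8% higher and 13.6% lower). The median log2 fold change of the members was 0.98, against −0.03 over all genes. Mmp24 did not reach the level needed for a test. The smallest p-values among the increases were those of Adamts1 and Mmp2. The membrane-bound Mmp15, Mmp16 and Mmp25 were among the decreases, together with Adamts3, Adamts13 and Adamts16. Of the decreases, Mmp16, Mmp25, Adamts13 and Adamts16 had met the count rule through ML libraries alone. Of the increases, Adamtsl2 and Adamtsl3 had met it through N libraries alone. The direction of these genes gives no support, although the counts and shares of this paragraph include them. By family, 4 of 14 Mmp genes rose and 3 fell, 7 of 19 Adamts genes rose and 3 fell, 4 of 5 Adamtsl genes rose, and Timp2 rose. Without WT N 3 and Y541S N 3 together 19 members (48.7%) and 32.0% of all genes were called. Without Y541S ML 3, WT ML 1 and WT ML 2 together, a choice made after seeing the data, 16 of 40 members and 17.2% of all genes were called, and the calls of Mmp14, Mmp16, Mmp25, Adamts4, Adamts14 and Timp2 were lost. All 9 N libraries lay above all 9 ML libraries for Adamts1, Mmp2 and Adamtsl3 (the last kept through N libraries alone), and below them for Mmp15. Over all genes 1.48% lay wholly above and 1.28% wholly below. Fold changes below are log2 values with standard errors for N over ML over the 3 genotypes, unless another comparison is named, and p-values are adjusted over all genes tested.

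**Figure D1:**
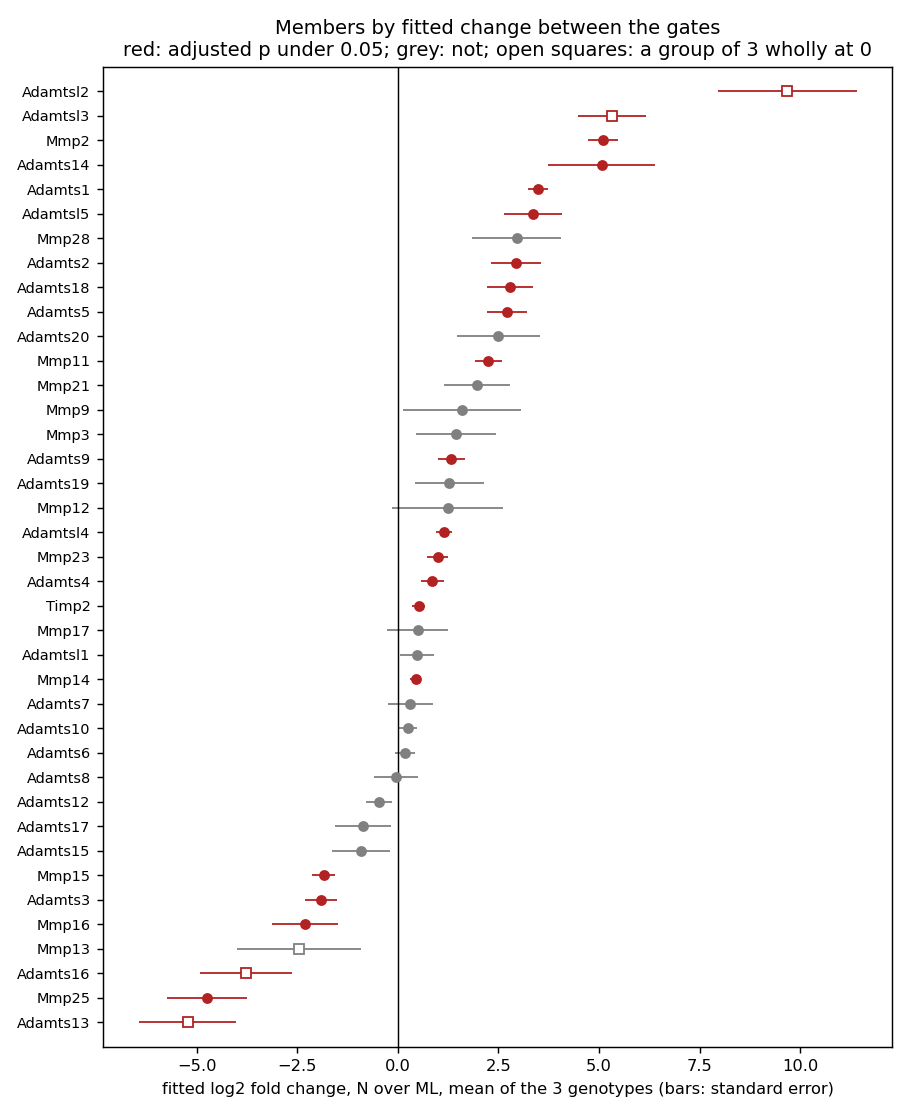
Fitted log2 fold change between the gates (N over ML, mean of the 3 genotypes, horizontal axis) with its standard error for each of 39 tested members, ordered by value; red marks an adjusted p under 0.05 and open squares mark members with at least 1 group of 3 libraries wholly at 0, whose fitted value is no measured size. Mmp2 (5.10 ± 0.38) and Adamts1 (3.49 ± 0.24) combine large changes with small errors, and Mmp15 (−1.84 ± 0.29) is their counterpart below 0.

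Mmp2 (gelatinase A; ENSMUSG00000031740, chromosome 8 92827291–92853420, + strand of GRCm38), which cuts denatured collagen and basement membrane collagen, was higher in N in every genotype. Its level was 96.1, 71.1 and 94.3 CPM in D542G N, 1101, 666 and 492 CPM in Y541S N and 305, 156 and 68.5 CPM in WT N libraries. In the ML gate it was 5.92, 6.24 and 12.3 CPM in D542G ML, 6.58, 17.3 and 14.7 CPM in Y541S ML and 1.63, 4.96 and 1.62 CPM in WT ML libraries. The lowest N library was thus WT N 3, which still lay above the highest ML library, and the Y541S N libraries were the highest. The fold change was 5.10 ± 0.38, adjusted p = 9.81e-07. It was called under all 26 alternative settings, at 4.89 to 5.35. The other gelatinase, Mmp9, was at 0 in 4 of 9 N and 6 of 9 ML libraries and reached 2.87 CPM in N and 0.517 CPM in ML libraries (adjusted p = 0.459).

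Of the membrane-type enzymes, Mmp15 (ENSMUSG00000031790, chromosome 8 95352268–95375080, + strand) fell most clearly. It stood at 51.9, 46.6 and 50.3 CPM in D542G N, 20.8, 23.7 and 21.1 CPM in Y541S N and 13.4, 19.0 and 88.6 CPM in WT N libraries. In ML libraries it stood at 128, 124 and 131 CPM in D542G ML, 148, 129 and 127 CPM in Y541S ML and 99.4, 93.2 and 157 CPM in WT ML libraries. The gates did not overlap, although WT N 3, at 88.6 CPM, lay close to the lowest ML library, at 93.2 CPM. The fold change was −1.84 ± 0.29, adjusted p = 0.000356. Mmp14 (ENSMUSG00000000957, chromosome 14 54431612–54445364, + strand), the main cell-surface activator of MMP2, rose slightly, to 225 to 487 CPM in N against 162 to 347 CPM in ML libraries (0.44 ± 0.14, adjusted p = 0.0335). That call was lost with library totals as the scale, without a low count filter and without any 1 of 9 libraries (adjusted p up to 0.0965 over all settings). The ratio of mean CPM, N over ML, was 42.8 for Mmp2 and 1.38 for Mmp14.

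Mmp25 (leukolysin), which is held in the membrane by a lipid anchor, fell to 0.533, 0.0793 and 0.258 CPM in D542G N, 0.0230, 0.0503 and 0 CPM in Y541S N and 0.151, 0 and 0.0247 CPM in WT N libraries. In the ML gate it was 1.87, 0.516 and 0.558 CPM in D542G ML, 0.452, 7.68 and 0.248 CPM in Y541S ML and 4.78, 5.48 and 0.0513 CPM in WT ML libraries. ML libraries spread widely, and 5 N libraries lay below the lowest of them. Mmp25 and Mmp16 met the count rule through ML libraries alone, so their direction gives no support. The fold change was −4.74 ± 0.9975, adjusted p = 0.00315, from 49 counts in all N and 861 in all ML libraries, and the call was lost without Y541S ML 3, WT ML 1 and WT ML 2 (adjusted p = 0.0573). Mmp16 fell as well (−2.30 ± 0.82, adjusted p = 0.0493) on few counts, 28 in N and 172 in ML libraries. That call was lost under 19 of 26 alternatives, among them the paired fit (−1.70, adjusted p = 0.201) and the fit without Y541S ML 2 (0.219). Mmp17 stood at 0.0247 to 9.59 CPM in N and 0.436 to 38.7 CPM in ML libraries (adjusted p = 0.682), where D542G ML 3 held the 38.7 CPM and no other library exceeded 9.59 CPM. Mmp24 reached 1.27 CPM in D542G N 2 and at most 0.252 CPM elsewhere.

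**Figure D2:**
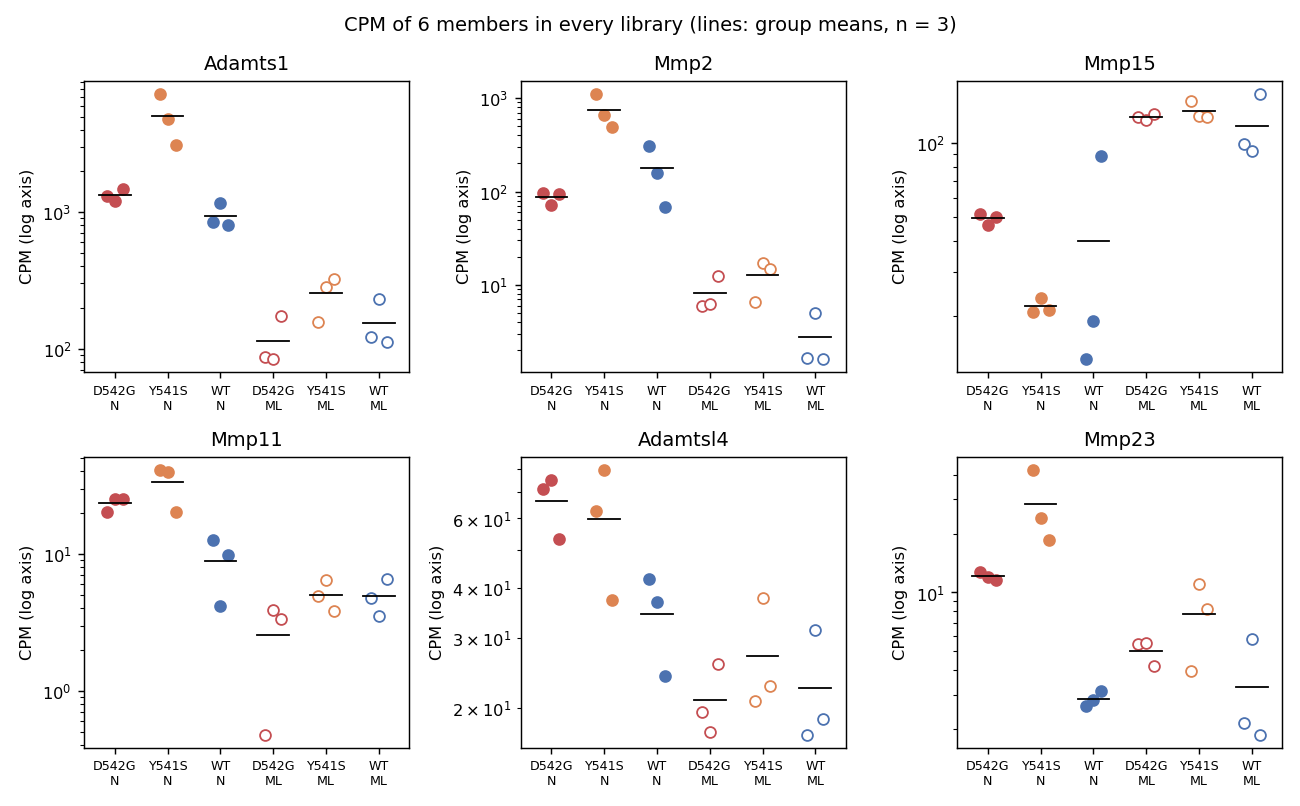
CPM on log axes for Adamts1, Mmp2, Mmp15, Mmp11, Adamtsl4 and Mmp23 in every library, with N groups as filled points left of ML groups as open points and the group mean (n = 3) as a line. Adamts1 and Mmp2 separate the gates and are highest in Y541S N, Mmp15 separates them the other way, and Mmp23 is higher in both mutant N groups than in WT N.

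Mmp11 (stromelysin 3; ENSMUSG00000000901, chromosome 10 75923222–75936496, - strand), a secreted enzyme that is activated by furin inside the cell, rose in N. Its level was 20.3, 25.0 and 25.2 CPM in D542G N, 41.0, 39.6 and 20.1 CPM in Y541S N and 12.5, 4.19 and 9.82 CPM in WT N libraries. ML libraries held 0.481, 3.87 and 3.37 CPM in D542G ML, 4.94, 6.40 and 3.82 CPM in Y541S ML and 4.78, 3.54 and 6.54 CPM in WT ML libraries. Both mutant N groups lay above all ML libraries, and WT N 2, at 4.19 CPM, lay among the ML libraries. The fold change was 2.25 ± 0.34, adjusted p = 0.000313. Mmp23, a small membrane-bound enzyme, rose with 0.98 ± 0.26, adjusted p = 0.012, and its values by genotype follow below. Stromelysin 1 (Mmp3), with the AP-1 element shown above, was not called (adjusted p = 0.302). It stood at 0.0235 to 7.93 CPM over the N libraries (median 1.36) and 0.0238 to 3.47 CPM over the ML libraries (median 0.582). Epilysin (Mmp28), known from keratinocytes, stood at 0 to 13.0 CPM over the N libraries (median 1.22) and 0 to 1.11 CPM over the ML libraries (median 0.166) and was not called (adjusted p = 0.0589). DESeq2 (0.0123), limma-voom with sample quality weights (0.015) and the fits without WT ML 1, Y541S ML 3 or WT N 3 (0.0302, 0.0421 and 0.0198) called it. Mmp21, known from left-right patterning of the embryo, was at 0 to 2.49 CPM in N and 0 to 0.827 CPM in ML libraries (adjusted p = 0.0908), and was called by DESeq2 (0.0355), by limma-voom (0.0238) and without WT ML 1 or Y541S N 2 (0.047 and 0.0408). Macrophage elastase (Mmp12) and collagenase 3 (Mmp13) were at 0 in 3 and 7 N libraries and in 3 and 6 ML libraries, and were not called (adjusted p = 0.548 and 0.262). Mmp12 reached 3.13 CPM in N and 1.03 CPM in ML libraries, and Mmp13 0.529 CPM in N and 0.807 CPM in ML libraries.

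Among the ADAMTS proteases that cut proteoglycans, Adamts1 (ENSMUSG00000022893, chromosome 16 85793827–85803113, - strand), which progesterone induces in the mouse ovary at ovulation, changed most. It stood at 1316, 1205 and 1473 CPM in D542G N, 7278, 4772 and 3112 CPM in Y541S N and 843, 1170.2 and 802 CPM in WT N libraries. ML libraries held 87.5, 84.3 and 172 CPM in D542G ML, 157, 283 and 321 CPM in Y541S ML and 121, 229 and 112 CPM in WT ML libraries. Every N library lay above every ML library, and the Y541S N libraries lay above all others. The fold change was 3.49 ± 0.24, adjusted p = 5.91e-07, called under all 26 alternatives.

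Adamts5, an aggrecan- and versican-cutting enzyme and the chromosomal neighbour of Adamts1, rose to 2.33, 2.77 and 6.48 CPM in D542G N, 16.1, 21.7 and 9.29 CPM in Y541S N and 4.60, 5.38 and 18.8 CPM in WT N libraries. In the ML gate it was 0.557, 0.409 and 2.32 CPM in D542G ML, 0.666, 3.23 and 1.31 CPM in Y541S ML and 1.47, 1.38 and 0.359 CPM in WT ML libraries. Of 9 N libraries 7 lay above all ML libraries (2.72 ± 0.49, adjusted p = 0.00109). Adamts4, of the same activity, stood at 11.7 to 96.3 CPM over the N libraries (median 25.7) and 5.89 to 44.8 CPM over the ML libraries (median 13.1) and rose by the test (0.85 ± 0.29, adjusted p = 0.0387), a call lost under 12 of 26 alternatives (adjusted p up to 0.076). By genotype its change was −0.28 ± 0.49 in D542G, 1.375 ± 0.498 in Y541S and 1.45 ± 0.50 in WT mice, with no call. The D542G gates overlapped, while the others did not. Adamts9, which cuts versican, rose as well (1.33 ± 0.34, adjusted p = 0.0096), at 9.62 to 21.3 CPM over the N libraries (median 13.0) and 2.38 to 13.8 CPM over the ML libraries (median 4.32). Its relative Adamts20 stood at 0 to 8.66 CPM over the N libraries (median 1.36) and 0 to 0.641 CPM over the ML libraries (median 0.0513) and was not called (adjusted p = 0.0883), while DESeq2 (0.0482), limma-voom (0.00428) and the fits without D542G ML 3 or Y541S ML 3 (0.0153 and 0.0234) called it. Adamts15 and Adamts8 were not called (adjusted p = 0.368 and 0.978). Adamts8, over most of whose exon bases another gene lies, stood at 0.0259 to 9.46 CPM over the N libraries (median 2.70) and 0.0481 to 3.60 CPM over the ML libraries (median 1.957). Adamts15 stood at 0 to 19.6 CPM over the N libraries (median 3.00) and 2.05 to 28.6 CPM over the ML libraries (median 6.29). It had 135, 95 and 0 counts in D542G N against 303, 233 and 264 in D542G ML libraries, while the Y541S and the WT gates overlapped. By limma-voom it was called lower in N (−2.42 ± 0.81, adjusted p = 0.0245).

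The 3 procollagen N-proteinases, which trim the amino ends of fibrillar procollagens, moved apart. Adamts2 rose to 4.69, 10.6 and 4.46 CPM in D542G N, 136, 89.5 and 54.5 CPM in Y541S N and 3.55, 7.99 and 18.1 CPM in WT N libraries. In the ML gate it was 0.0253, 2.73 and 9.74 CPM in D542G ML, 1.55, 3.35 and 6.01 CPM in Y541S ML and 1.08, 0.831 and 0.744 CPM in WT ML libraries. The D542G gates overlapped while the others did not (2.94 ± 0.63, adjusted p = 0.00341). Adamts3, also known for processing VEGF-C, fell to 2.96, 0.912 and 0.493 CPM in D542G N, 5.64, 10.3 and 5.31 CPM in Y541S N and 5.74, 2.15 and 2.99 CPM in WT N libraries. ML libraries held 5.54, 6.82 and 16.6 CPM in D542G ML, 11.7, 34.7 and 12.02 CPM in Y541S ML and 12.4, 12.8 and 6.46 CPM in WT ML libraries. Within each genotype all N libraries lay below all ML libraries (−1.91 ± 0.39, adjusted p = 0.00277). Adamts14 was uneven between N libraries, at 0.222, 4.02 and 0 CPM in D542G N, 0.0230, 1.66 and 39.7 CPM in Y541S N and 16.6, 52.5 and 1.70 CPM in WT N libraries, and at 0 to 1.36 CPM in ML libraries. It was called (5.07 ± 1.33, adjusted p = 0.0116), but not by limma-voom (0.0785) or in the paired fit (4.32, adjusted p = 0.112).

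Of the remaining ADAMTS genes, Adamts18, which the mouse myoepithelium makes downstream of progesterone, rose to 3.13, 1.66 and 4.98 CPM in D542G N, 15.6, 2.79 and 5.81 CPM in Y541S N and 0.579, 1.01 and 8.81 CPM in WT N libraries. ML libraries held 0.278, 0.753 and 0.827 CPM in D542G ML, 0.689, 2.05 and 0.452 CPM in Y541S ML and 0.577, 0.443 and 0.231 CPM in WT ML libraries. The gates did not overlap within any genotype (2.78 ± 0.58, adjusted p = 0.00284). Adamts13, the protease of von Willebrand factor, had no count in any D542G N or WT N library. It held 2, 20 and 37 counts in D542G ML and 84, 3 and 22 counts in WT ML libraries. At a floor of 3 counts per N library its mean CPM was 6.34-fold lower in D542G N than in D542G ML. In WT mice it was 11.7-fold lower in N at that floor. The floor makes no allowance for the spread of the ML libraries. D542G ML 1, at 0.0506 CPM, lay below the floor of the D542G N libraries. Y541S N libraries held 40, 18 and 0 and Y541S ML libraries 3, 18 and 53 counts. Over the 3 genotypes it was called (adjusted p = 0.00911), but not in the paired fit (0.0834). Adamts16, with 4 counts in all N and 64 in all ML libraries, was called lower (adjusted p = 0.0279) but lost that call under 11 of 26 alternatives (up to 0.106). Adamts13 and Adamts16 met the count rule through ML libraries alone, so their direction gives no support.

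Adamts6, Adamts7, Adamts10, Adamts12, Adamts17 and Adamts19 were not called between the gates, with adjusted p from 0.295 to 0.733 and fitted changes from −0.87 to 1.28. For Adamts6, a close relative of the fibrillin-binding Adamts10, the value was 0.17 ± 0.24, with 2.16 to 7.20 CPM in N and 2.73 to 7.89 CPM in ML libraries. Adamts7 and Adamts12, both known to cut cartilage oligomeric matrix protein, stood at 0.222 to 5.25 and 0.553 to 3.38 CPM in N and at 0.127 to 5.75 and 1.64 to 4.01 CPM in ML libraries. Adamts17 stood at 0.0252 to 2.99 CPM over the N libraries (median 1.06) and 0.304 to 6.56 CPM over the ML libraries (median 2.05). Adamts19 stood at 4.73 CPM in WT N 1 and at most 0.290 CPM in every other library.

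ADAMTS-like proteins, several of which bind fibrillin microfibrils, were higher in N for 4 of 5 genes, of which Adamtsl2 and Adamtsl3 had passed the count rule only through N libraries. Adamtsl4 stood at 71.3, 74.9 and 53.1 CPM in D542G N, 62.5, 79.5 and 37.4 CPM in Y541S N and 42.3, 37.0 and 24.0 CPM in WT N libraries. ML libraries held 19.5, 17.3 and 25.8 CPM in D542G ML, 20.8, 37.8 and 22.6 CPM in Y541S ML and 17.1, 31.5 and 18.8 CPM in WT ML libraries. The gates did not overlap in D542G, and overlapped in Y541S and WT (1.14 ± 0.20, adjusted p = 0.000718). Adamtsl5 rose to 11.6, 12.5 and 9.13 CPM in D542G N, 13.0, 15.7 and 21.1 CPM in Y541S N and 28.8, 35.2 and 0.0987 CPM in WT N libraries. In the ML gate it was 1.21, 0.602 and 1.32 CPM in D542G ML, 0.238, 1.70 and 1.69 CPM in Y541S ML and 5.79, 0.526 and 2.13 CPM in WT ML libraries. WT N 3 alone, with 4 counts, lay below the ML libraries, and the other 8 N libraries lay above them all (3.37 ± 0.72, adjusted p = 0.00356).

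Adamtsl2, whose human gene is mutated in geleophysic dysplasia, was the 1 member without a count in any ML library. It held 274, 82 and 65 counts in D542G N, 196, 0 and 0 counts in Y541S N and 95, 104 and 175 counts in WT N libraries. At a floor of 3 counts per ML library its mean CPM was 35.7-fold higher in N (adjusted p = 0.0039). The floor makes no allowance for the spread of the N libraries. The call was lost without Y541S N 1 (adjusted p = 1), the single Y541S N library with a count, so that both Y541S groups were at 0. In that setting it was called in D542G (0.00671) and in WT mice (0.0176). Adamtsl3 held 46, 35 and 141 counts in D542G N, 18, 49 and 6 in Y541S N and 12, 13 and 6 in WT N libraries, against 10 counts over the 9 ML libraries together. Its mean CPM was 16.99-fold higher in N, with that floor for WT ML, which had no count (adjusted p = 0.00069). Adamtsl1 stood at 0.906 to 13.1 CPM over the N libraries (median 4.34) and 0.903 to 6.73 CPM over the ML libraries (median 4.95) and was not called (adjusted p = 0.434).

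Timp2 (ENSMUSG00000017466, chromosome 11 118301069–118355740, - strand), the inhibitor that also bridges MMP14 and proMMP2, stood at 790.4, 796 and 775 CPM in D542G N, 1685, 1147 and 779 CPM in Y541S N and 588, 354 and 589 CPM in WT N libraries. ML libraries held 479, 437 and 414 CPM in D542G ML, 723, 687 and 631 CPM in Y541S ML and 363, 636 and 654 CPM in WT ML libraries. The D542G and the Y541S gates did not overlap, while the WT gates did. The fold change was 0.51 ± 0.16, adjusted p = 0.0289, a call lost in the paired fit (0.49, adjusted p = 0.0534), with library totals as the scale (0.0685) and without any 1 of 6 libraries (up to 0.0617). By mean CPM, N over ML, Timp2 differed by 1.49-fold, against 42.8-fold for Mmp2.

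**Figure D3:**
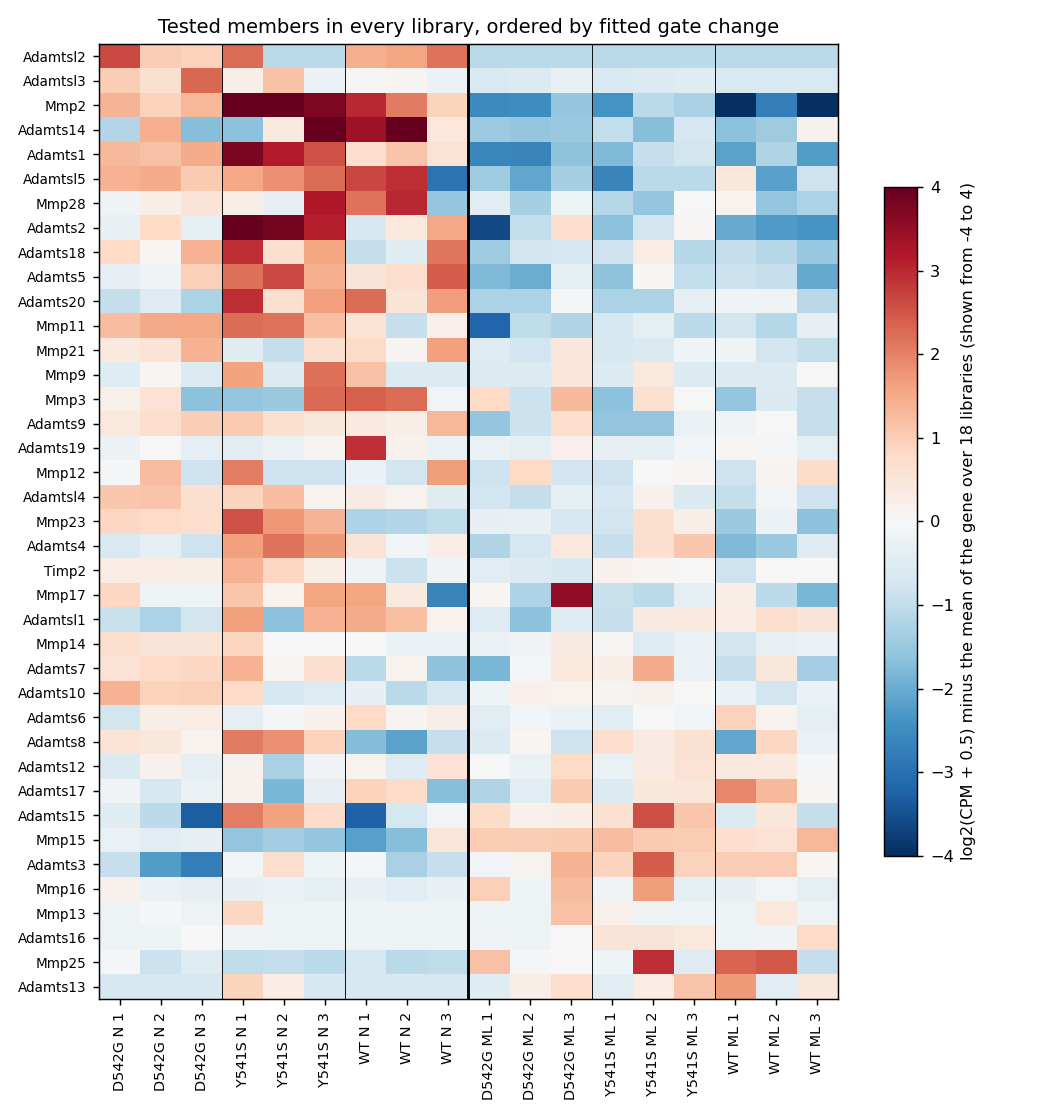
Tested members (rows, ordered by fitted gate change) in every library (columns, N groups left of the thick line), as log2(CPM + 0.5) minus the mean of the gene over 18 libraries, with colours from −4 to 4. Adamts1, Mmp2 and Adamts2 are deepest in the Y541S N columns, Adamts14, Mmp28 and Mmp3 in WT N 1, WT N 2 and Y541S N 3, and Mmp17 in D542G ML 3.

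By genotype, the gate comparison rests on 3 libraries against 3. In D542G mice 6 members were called, 5 higher and 1 lower, or 15.4% against 9.20% of all genes (4.71% higher and 4.49% lower). In Y541S mice 8 were called, 6 higher and 2 lower, or 20.5% against 6.95% (4.22% higher and 2.73% lower). In WT mice 2 were called, both higher, or 5.13% against 3.53% (2.14% higher and 1.39% lower). Of the D542G increases, Adamtsl3 had met the count rule through N libraries alone. Of the Y541S decreases, Mmp25 had met it through ML libraries alone. The direction of these genes gives no support, although the counts and shares by genotype include them. Mmp2 and Adamts1 were called in each genotype. Mmp2 changed by 3.42 ± 0.61 in D542G, 5.87 ± 0.68 in Y541S and 6.01 ± 0.69 in WT mice (adjusted p = 0.00333, 0.000259 and 0.000707). Adamts1 changed by 3.54 ± 0.42 in D542G, 4.32 ± 0.44 in Y541S and 2.60 ± 0.41 in WT mice (adjusted p = 0.000331, 9.71e-05 and 0.00554). Mmp11 rose in D542G (3.19 ± 0.62, adjusted p = 0.00581) and in Y541S mice (2.73 ± 0.61, adjusted p = 0.0141), and stood at 0.84 ± 0.57, adjusted p = 0.419 in WT mice. Leaving out Y541S N 1, Y541S ML 1 or Y541S ML 3 ended its call in Y541S mice (adjusted p up to 0.065). The WT call of Adamts1 was lost without Y541S ML 3, WT ML 1 and WT ML 2 together (adjusted p = 0.0615).

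Adamtsl4 rose in D542G mice (1.67 ± 0.34, adjusted p = 0.00811), Adamts3 fell (−2.73 ± 0.71, adjusted p = 0.0266; lost without D542G ML 3, D542G N 2 or D542G N 3, up to 0.111), and Adamtsl3 rose there (adjusted p = 0.0378, 0.0599 in the paired fit and up to 0.147 over the alternatives). In Y541S mice Mmp15 fell (−2.62 ± 0.51, adjusted p = 0.00659), as did Mmp25 (adjusted p = 0.049, up to 0.406 over the alternatives). Adamts5 (3.18 ± 0.87, adjusted p = 0.0389; lost under 8 of 26 alternatives, 7 of them with 1 library left out, up to 0.156), Adamts2 (4.68 ± 1.17, adjusted p = 0.0261; 0.0507 in the paired fit) and Mmp23 (1.88 ± 0.46, adjusted p = 0.0232; 0.0618 in the paired fit) rose there. The paired fit added Mmp15 in D542G (−1.37 ± 0.32, adjusted p = 0.0291) and in WT mice (−2.01 ± 0.34, adjusted p = 0.0166) and Adamtsl4 in Y541S mice (1.13 ± 0.29, adjusted p = 0.0467), which stood at 0.0932, 0.0971 and 0.0561 without the pairs. The WT count turned on WT N 3, whose removal raised it to 5 with Mmp15 (−2.85 ± 0.24, adjusted p = 4.76e-05), Adamtsl5 (3.50 ± 0.81, adjusted p = 0.0105) and Adamtsl3 (adjusted p = 0.0239). The Y541S count was 3 without Y541S ML 1 or Y541S N 1 and 11 without WT N 3. These counts with 1 library left out are given without shares of all genes. Without WT N 3 and Y541S N 3 together 7 members (17.9%) and 17.4% of all genes were called in WT mice. In Y541S mice that fit called 12 members (30.8%) and 9.64% of all genes. The added WT calls are therefore not read as particular to these proteases. Of them, Adamtsl3 had met the count rule through N libraries alone.

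**Figure D4:**
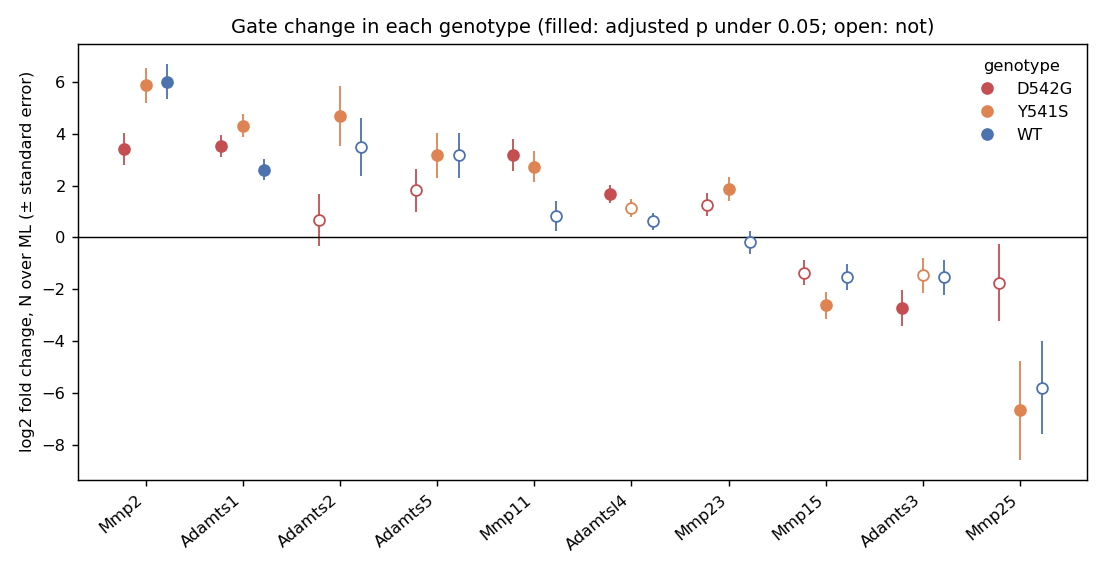
Log2 fold change of N over ML with its standard error in D542G, Y541S and WT mice for the members called in at least 1 genotype and measured above 0 in every group (filled points, adjusted p under 0.05; open points, not). Mmp2 and Adamts1 are filled in each genotype, and Mmp15, Adamts3 and Mmp25 lie below 0 in each. Mmp25 met the count rule through ML libraries alone, so its direction gives no support. Adamtsl3 is left out because WT ML was at 0.

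Whether the gate change differed between genotypes was tested directly. edgeR called no member for either mutant against WT (of all genes 0.109% were called for D542G, 0.104% higher and 0.00547% lower, and none for Y541S). At an unadjusted p under 0.05 there were 8 of 39 members for D542G and 6 of 39 for Y541S. Over all 18298 genes there were 1954 (10.7%) and 1538 (8.41%). The smallest p in D542G was that of Mmp2 (−2.60 ± 0.80, adjusted p = 0.262), which DESeq2 called (0.0465). In Y541S it was that of Mmp23 (2.07 ± 0.64, adjusted p = 0.425), followed by Adamts1 (1.71 ± 0.55, adjusted p = 0.429), and limma-voom called both (0.0487 and 0.0407). For D542G limma-voom called Adamtsl4, Timp2, Adamts1 and Mmp15 (0.0310 to 0.0470). Without WT N 3 edgeR called Mmp15 as less reduced in D542G than in WT mice (1.48 ± 0.29, adjusted p = 0.0316). DESeq2 called no member for Y541S.

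Within the N gate the mutants were compared with WT. These comparisons share the WT N libraries. In D542G N 2 of 39 members were called, both higher (5.13% against 2.43% of all genes, 1.61% higher and 0.82% lower), and in Y541S N also 2, both higher (5.13% against 1.14%, 1.02% higher and 0.115% lower). Mmp23 (ENSMUSG00000029061, chromosome 4 155650655–155653384, - strand) was called in both. It stood at 12.7, 11.97 and 11.6 CPM in D542G N, 42.4, 24.1 and 18.7 CPM in Y541S N and 2.62, 2.82 and 3.13 CPM in WT N libraries. The 3 groups did not overlap, and the WT N level was within the range of WT ML (2.14, 5.79 and 1.87 CPM). The fold changes were 2.08 ± 0.46, adjusted p = 0.0324 in D542G N and 3.31 ± 0.49, adjusted p = 0.00569 in Y541S N. The second held under all 26 alternatives and the first was lost without any 1 D542G N library, without WT N 1 or WT N 2 and with a block on library number.

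Adamts10, which acts on fibrillin microfibrils, was higher in D542G N, at 9.87, 7.02 and 7.16 CPM, than in WT N, at 2.64, 1.37 and 1.97 CPM (2.004 ± 0.44, adjusted p = 0.0303). The call was lost without any 1 D542G N library, without WT N 1 or 2 and without a low count filter (adjusted p up to 0.126). Adamts1 was higher in Y541S N (5054 ± 2097 CPM, mean ± SD, n = 3) than in WT N (938 ± 202 CPM), with 2.43 ± 0.40, adjusted p = 0.0112. That call was lost without Y541S N 1 or WT N 1 (adjusted p up to 0.0606). Timp2 stood at 1203 ± 456 CPM in Y541S N and 511 ± 136 CPM in WT N, just outside the threshold (1.24 ± 0.28, adjusted p = 0.051). Without WT N 3 and Y541S N 3 together Timp2, Adamts8 and Adamts18 were added in Y541S N, for 5 members called (12.8%, against 10% of all genes). In D542G N the same fit added Mmp15 and Adamts8, for 4 members called (10.3%, against 9.65% of all genes).

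Between the mutants, 3 of 39 members were lower in D542G N than in Y541S N and none was higher (7.69% against 1.43% of all genes, 0.421% higher and 1.01% lower). Mmp2 differed most, at 87.2 ± 14.0 CPM in D542G N and 753 ± 313 CPM in Y541S N (−3.11 ± 0.60, adjusted p = 0.0169). Adamts4 stood at 13.8, 16.1 and 11.7 CPM in D542G N and 66.5, 96.3 and 70.2 CPM in Y541S N (−2.49 ± 0.52, adjusted p = 0.0279). Adamts1 followed with −1.93 ± 0.40, adjusted p = 0.027, a call lost with a block on library number (0.0686). For all 3 genes the D542G N and Y541S N libraries did not overlap. All 3 calls were lost without Y541S N 1, those of Adamts1 and Adamts4 also without Y541S N 2, and without any 1 D542G N library no member was called. Pericyte and smooth muscle markers, taken as a sum, moved with this difference. Their summed level was 105 to 112 CPM in D542G N, 299 to 425 CPM in Y541S N and 103 to 137 CPM in WT N libraries. Mcam held the greatest part of it, at 328, 248 and 146 CPM in Y541S N, while the pericyte gene Rgs5 was at 29.3 to 45.0 CPM in Y541S N and 16.7 to 20.7 CPM in D542G N. Cspg4 was also higher in Y541S N, while Pdgfrb, Des and Notch3 overlapped between D542G N and Y541S N. Contractile genes of the basal list, chosen after their values were seen, moved with this difference too. Acta2 stood at 214, 318 and 221 CPM in D542G N, 4639.6, 2438 and 2674 CPM in Y541S N and 104, 181 and 582 CPM in WT N libraries. The oxytocin receptor gene Oxtr stood at 75.7, 81.2 and 71.0 CPM in D542G N and 1809, 1183 and 623 CPM in Y541S N, and the calponin gene Cnn1 at 34.9, 67.4 and 39.7 CPM in D542G N and 808, 447 and 445 CPM in Y541S N. Myh11, Mylk and Krt5 of the basal list were also higher in Y541S N, but not all of that list moved this way. Trp63 went the other way, at 701, 713 and 692 CPM in D542G N and 676, 344 and 608 CPM in Y541S N. Krt14 overlapped between these groups. Summed endothelial markers were at 84.2 to 123 CPM in D542G N, 183 to 496 CPM in Y541S N and 96.3 to 140.5 CPM in WT N libraries. The part of these markers in the difference was not tested.

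Within the ML gate edgeR called no member, and none of all 18298 genes, for D542G or Y541S against WT. At an unadjusted p under 0.05 there were 4 of 39 members for D542G and 3 of 39 for Y541S. Over all 18298 genes there were 1129 (6.17%) and 1012 (5.53%). DESeq2 called 1, Mmp2 in Y541S ML (adjusted p = 0.0325), at 12.9 ± 5.58 CPM in Y541S ML and 2.74 ± 1.92 CPM in WT ML, and limma-voom called none in either. Over members with at least 100 counts in a group the median coefficient of variation was 0.245 in D542G N, 0.438 in Y541S N and 0.676 in WT N, and 0.481 in D542G ML, 0.463 in Y541S ML and 0.501 in WT ML. Timp2 in D542G N varied least of all (0.0137) and Adamtsl2 in Y541S N most (1.73).

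Some members followed single libraries and not a genotype. Adamts14, Mmp28 and Mmp3 were each highest in WT N 1, WT N 2 and Y541S N 3. Adamts14 held 39.7 CPM in Y541S N 3, 16.6 CPM in WT N 1 and 52.5 CPM in WT N 2, and at most 4.02 CPM in the other 15 libraries. Mmp28 held 13.0, 6.09 and 11.3 CPM there and at most 1.57 CPM elsewhere. Mmp3 held 7.20, 7.93 and 7.11 CPM there and at most 3.47 CPM elsewhere. The same 3 libraries had the highest summed level of 7 epidermal and squamous markers, at 18454 CPM in Y541S N 3, 27878 CPM in WT N 1 and 33431 CPM in WT N 2, against 1398 to 5146 CPM in the other 6 N libraries and 99.4 to 2358 CPM in ML libraries. Krt15 held the greatest part of these 3 sums, at 8409, 24585 and 24989 CPM in the order given. Krt15, Krt1 and Krt10 were each highest in these 3 libraries, and Lor, Ivl, Sbsn and Krt6a were not. Krt6a was highest in D542G N, at 1618, 1424 and 1940 CPM, against 163, 254 and 162 CPM in the 3 libraries. All 7 of these markers had counts in N and ML libraries, and their part in the levels of Adamts14, Mmp28 and Mmp3 was not tested.

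**Figure D5:**
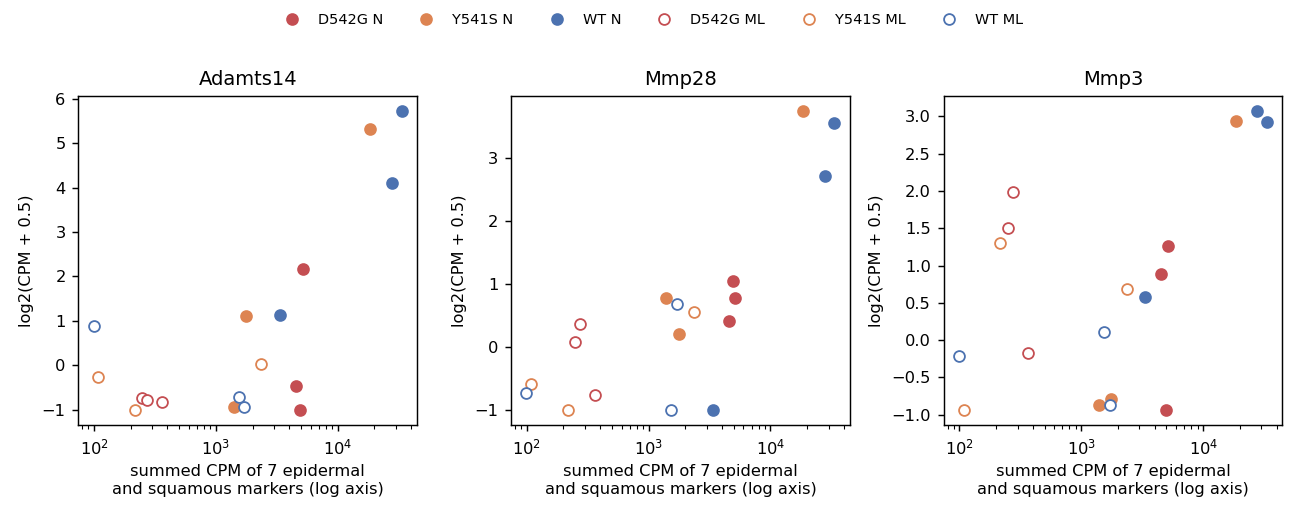
Level of Adamts14, Mmp28 and Mmp3, as log2(CPM + 0.5), against the summed CPM of 7 epidermal and squamous markers on a log axis, with 1 point per library (N filled, ML open). WT N 1, WT N 2 and Y541S N 3 form the upper right group in each panel, at 18454 to 33431 CPM of markers.

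The wider pathway was read from lists of activators, inhibitors and substrates in the comparison of the gates over the 3 genotypes. Of 14 tested activators and cofactors 6 rose and 3 fell. Among those that rose were cathepsin L (Ctsl, 1.32 ± 0.15), the proprotein convertase Pcsk5 (2.76 ± 0.35) and tissue plasminogen activator (Plat, 1.66 ± 0.22), and the membrane serine protease matriptase fell (St14, −1.31 ± 0.20). Of 11 tested inhibitors of other kinds 6 rose and 1 fell, with Serpinf1 at 2.60 ± 0.28, the testican Spock2 at 3.56 ± 0.46 and maspin (Serpinb5) at 1.38 ± 0.24. Reck, the membrane-anchored inhibitor of MMPs, named after its value was seen, rose with 1.44 ± 0.50 (adjusted p = 0.0448). Of 10 ADAM sheddases, membrane-bound relatives, 1 rose and 2 fell, with Adam28 at 3.88 ± 0.70, Adam33 at −5.33 ± 1.32 and Adam10 at −1.11 ± 0.29. Adam33 stood at 0 to 0.289 CPM in N and 0 to 3.33 CPM in ML libraries, so the size of its change is uncertain. Adam28 stood at 0.0252 to 56.4 CPM in N and 0 to 7.44 CPM in ML libraries. Adam10 stood at 93.9 to 522 CPM in N and 172 to 521 CPM in ML libraries.

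Substrates rose more often than they fell. Of 21 basement membrane genes 13 rose and none fell, with a median change of 1.65, among them the laminin chains Lamb3 (3.29 ± 0.32) and Lamb1 (2.56 ± 0.27), agrin (Agrn, 1.597 ± 0.16) and the anchoring fibril collagen Col7a1 (5.70 ± 0.62). Of 25 interstitial matrix genes 12 rose and 2 fell, with a median of 1.68, among them elastin (Eln, 2.75 ± 0.26), Sparc (3.12 ± 0.31), Col12a1 (3.76 ± 0.39) and periostin (Postn, 4.26 ± 0.46). All genes given by value in these lists had adjusted p ≤ 0.0448. The shares called were 64.3%, 63.6%, 30.0%, 61.9% and 56.0% for the 5 lists in the order given, against 27.4% of all genes. Between D542G N and Y541S N, 7 of 25 interstitial matrix genes were lower in D542G N (28.0%) and none was higher, against 1.01% lower and 0.421% higher of all genes.

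Fibroblasts, macrophages, pericytes and endothelial cells also make these proteases, and their markers were read in the same libraries. Markers given here by name were chosen after their values were seen. Of 8 fibroblast markers 1, Dpt, was higher in N, and the sum was 80.5 to 455 CPM in N and 43.2 to 427 CPM in ML libraries. Pdgfra, which defines these cells, was at 0 to 35.2 CPM in N and 0.101 to 6.30 CPM in ML libraries, with 0 in WT N 3. Of 6 tested macrophage and dendritic markers none was higher and 1, Flt3, lower in N, at 3.00 to 54.5 CPM summed in N and 4.42 to 18.4 CPM in ML libraries, with Itgam at 0 throughout. Of 6 pericyte and smooth muscle markers 2 were higher (Mcam and Cspg4) and 1 lower (Notch3), at 103 to 425 CPM in N and 63.9 to 119 CPM in ML libraries. Of 6 endothelial markers 4 were higher and 1 lower, at 84.2 to 496 CPM summed in N and 90.1 to 197 CPM in ML libraries, with Pecam1 at 26.6 to 218 CPM in N and 5.10 to 60.1 CPM in ML libraries. Of 5 tested neutrophil and mast cell markers 2 were higher (2.32 to 64.7 CPM in N and 0.0713 to 17.8 CPM in ML libraries), and of 5 tested adipocyte markers 1 (108 to 739.7 CPM in N and 62.6 to 284 CPM in ML libraries). Of the other lists, 5 of 6 luminal progenitor, 4 of 8 mature luminal and 5 of 6 hair follicle keratin genes were lower in N and none higher, and 3 of 7 epidermal and squamous genes were higher and none lower. The part of these markers in the gate changes was not tested.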

How the data were processed

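RNA of sorted cells was sequenced from Nextera XT libraries, per the labels. The authors deposited a whole-number read count per gene, a gene width and an RPKM value. The build was GRCm38, per the submitters' processing notes, while aligner, counting tool and strand setting are not given in these sources. RPKM, computed by the authors with a width that equals the whole gene span for 23 of the 40 members, was used in no test, and levels were not compared between genes. Gene symbols came from a table of IDs (99.56% matched), and coordinates from GENCODE M21.

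The deposited counts were tested with edgeR 4.0.16 in R 4.3.3: filterByExpr on 6 groups (minimum count 10, minimum total 15; 18298 genes), TMM, and 1 quasi-likelihood fit of 6 group means, with 12 residual df (biological coefficient of variation 0.652). Benjamini-Hochberg adjustment was over all genes tested, with calls at 0.05. A standard error is the fold change divided by the square root of its F statistic, and floors (3 counts per library) cover counting error only. The test was tried on simulated counts. DESeq2 1.42.0, limma-voom with sample quality weights (limma 3.58.1, so that tool and weights change together; 0.180 for WT N 3), other scalings and filters, a replicate block and leaving out libraries were alternatives, and leaving out 3 ML libraries together was added after seeing the data.

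Within a genotype, N and ML libraries of equal number deviated together from their group means (r = 0.168 to 0.556 in 9 of 9 pairs, other pairs −0.456 to 0.193). This pairing is read from the data, and the labels name no shared animal. Equal numbers across genotypes did not pair (−0.543 to 0.298). Replicates are separate samples per the labels, and p-values measure the spread between them. No replicates were identical (chi-square per degree of freedom at least 45.7). Full values are given for the 12 called members with the smallest p between the gates and for members called between genotypes, plus Adamtsl2, Timp2 and others chosen after their values were seen. The members and lists were chosen with earlier results of these data known. The values of 1 listed inhibitor are not reported here.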

Additional observations from a re-analysis of the deposited data

How the results depend on the processing

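Of 22 members called between the gates over the 3 genotypes 14 were called under all 26 alternatives and 16 with each library left out in turn. The count was 17 to 22 with 1 library left out, 17 in the paired fit and 19 to 24 under the other alternatives set out first. With 1 library left out the counts ranged from 4 to 8 in D542G, 3 to 11 in Y541S and 2 to 5 in WT mice, 0 to 3 for D542G against WT in N, 1 to 4 for Y541S against WT in N, 0 to 4 for D542G against Y541S in N, 0 to 1 for the gate change of D542G, and 0 for that of Y541S and for both comparisons in ML. In the order N against ML in D542G, Y541S and WT mice, D542G against WT, Y541S against WT and D542G against Y541S in N, where edgeR called 6, 8, 2, 2, 2 and 3 members, DESeq2 called 12, 17, 11, 4, 9 and 7 and limma-voom with quality weights 18, 15, 11, 13, 11 and 9. The share of all genes moved too, in that order to 17.4%, 13.6%, 11.3%, 9.37%, 5.82% and 6.23% by DESeq2 and 32.0%, 14.2%, 28.2%, 22.4%, 10.6% and 6.67% by limma-voom, against 9.20%, 6.95%, 3.53%, 2.43%, 1.14% and 1.43% by edgeR. Leaving out WT N 3 and Y541S N 3 gave 11 in D542G mice (28.2%, against 15% of all genes). In WT mice it gave 7 (17.9%, against 17.4%). In N it gave 4 for D542G against WT (10.3%, against 9.65%) and 5 for Y541S against WT (12.8%, against 10%). For the gate change of D542G it gave 1 (2.56%, against 2.13%). In WT mice the share of members thus stood near that of all genes. Counts with 1 library left out are given here without shares of all genes. DESeq2 called 1 member for Y541S against WT in ML (2.56%, against 0.279% of all genes). For the gate change of D542G, DESeq2 called 1 (2.56%, against 2.21%) and limma-voom 4 (10.3%, against 6.85%). For that of Y541S limma-voom called 2 (5.13%, against 1.83%). For D542G against WT in N there was 1 call without a low count filter and 1 with a replicate block, which changed no other count by over 1.5 times and ended or added the single calls named above. Leaving out Y541S ML 3, WT ML 1 and WT ML 2 together, which takes the lone WT ML library to vary like the other groups, gave 16 calls over the 3 genotypes, 5 in D542G (without Adamts3), 5 in Y541S (without Mmp11, Adamts2 and Adamts5) and 1 in WT mice, and 1 for D542G against WT in N (without Adamts10), and turned Adamts8 over the 3 genotypes to 0.0726. The direction turned for 5 members not called in N over ML. With 1 library left out Mmp9 ranged over −0.75 to 3.55 (−0.75 without WT N 1), Adamts7 over −0.08 to 0.71 (−0.0811 without WT N 2), Mmp3 over −0.30 to 1.73 (lowest without Y541S N 3; −0.15 without WT N 3 and Y541S N 3), Mmp12 over −1.56 to 2.80 (lowest without Y541S N 1; −0.22 with a replicate block) and Adamts8 over −0.54 to 0.35 (above 0 without 1 of 6 libraries; 0.25 with a replicate block). Of 1611 single values, which cover 62 results (every tested member over the 3 genotypes and members already called elsewhere), 1441 kept direction and side of the threshold, 143 lost and 14 gained a call. In the other comparisons members not called gained 165 calls, 39 by DESeq2 and 61 by limma-voom. The cause of these shifts was not tested. Depth limits members with under 100 counts in a gate, such as Adamts13, Adamts16, Mmp13, Mmp16 and Mmp25.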
